A study of Mus musculus with 6 samples.

Results

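The genes described here encode enzymes of the citric acid cycle (tricarboxylic acid cycle) in the mitochondrial matrix, or subunits of them. They were taken by gene name from the deposited tables, and all 9 names (Cs, Idh2, Idh3a, Idh3b, Idh3g, Ogdh, Suclg1, Fh1 and Mdh2) were found among the 54532 genes. RNA was sequenced from kidneys of 3 WT mice and 3 Trpm2-/- mice of the strain C57BL/6J. Every mouse had received cisplatin at 18 mg/kg, a platinum drug that injures renal tubules, and kidneys were collected 72 h later, so neither genotype has an untreated control in these data. The labels give an age of 6 to 8 weeks, whereas the methods give a somewhat older range and state that the mice were male. The Trpm2-/- line carries a deletion of exons that code for transmembrane segments, so that its TRPM2 protein makes no working channel. The WT mice were bought from a supplier and the Trpm2-/- line came from another laboratory, so genotype and origin cannot be told apart. WT libraries bear the numbers 1 to 3, whereas Trpm2-/- libraries bear 1, 2 and 4.

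The cycle joins acetyl-CoA to oxaloacetate and oxidizes the resulting citrate back to oxaloacetate. The NADH and reduced flavin that it makes feed the respiratory chain. Proximal tubule cells, the main site of cisplatin uptake in the kidney, depend on mitochondrial oxidation for the energy of reabsorption and are rich in these enzymes. Several cycle intermediates are also drawn off or replenished there for gluconeogenesis and ammonia production.

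Libraries held between 14053307 and 17150089 counts on genes, and 3 counts correspond to 0.175 to 0.213 counts-per-million (CPM), a limit that covers counting error only. Trpm2 had 5, 5 and 27 counts in WT libraries and 10, 16 and 20 in Trpm2-/- libraries, and since counts cover the whole gene they do not check the genotype labels. The mitochondrial genome took 4.43% to 4.72% of counts in WT kidneys and 7.91% to 11.04% in Trpm2-/- kidneys. Summed markers of proximal tubule were at 5242 to 6911 CPM in WT and 2278 to 2845 CPM in Trpm2-/- kidneys. In Trpm2-/- replicate 4, podocyte markers summed to 509.8 CPM against 130 to 173 CPM in the other libraries, and endothelial and fibroblast markers were also highest there.

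Most enzymes of the cycle had less mRNA in Trpm2-/- kidneys than in WT kidneys, but not in equal measure. Idh2, Fh1 and Suclg1 fell to 0.482, 0.519 and 0.523 of the WT level, Idh3g, Mdh2 and Idh3b to 0.621, 0.674 and 0.678, whereas the genotypes overlapped for Cs and Idh3a. Of the 9 genes, 6 were lower at an adjusted p under 0.05, against 7.28% of the 15816 genes tested (quasi-likelihood F test of edgeR, Benjamini-Hochberg adjustment over all of them). None was higher (0 of 9, against 4.74% of genes tested), and this count was also 0 at an unadjusted p under 0.05, by DESeq2 and by limma-voom. All 9 log2 fold changes were below 0, with a median of -0.57 beside 0.02 for all genes tested. In 7 of the 9 genes every Trpm2-/- library lay below every WT library, which was so for 16.8% of genes tested. Summed over the 9 genes, the level was 2474, 2780 and 2836.5 CPM in WT libraries and 1894, 1646 and 1857 CPM in Trpm2-/- libraries, a ratio of means of 0.667. These are bulk kidneys, so fewer cells of a type and less RNA per cell cannot be told apart.

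**Figure D1:**
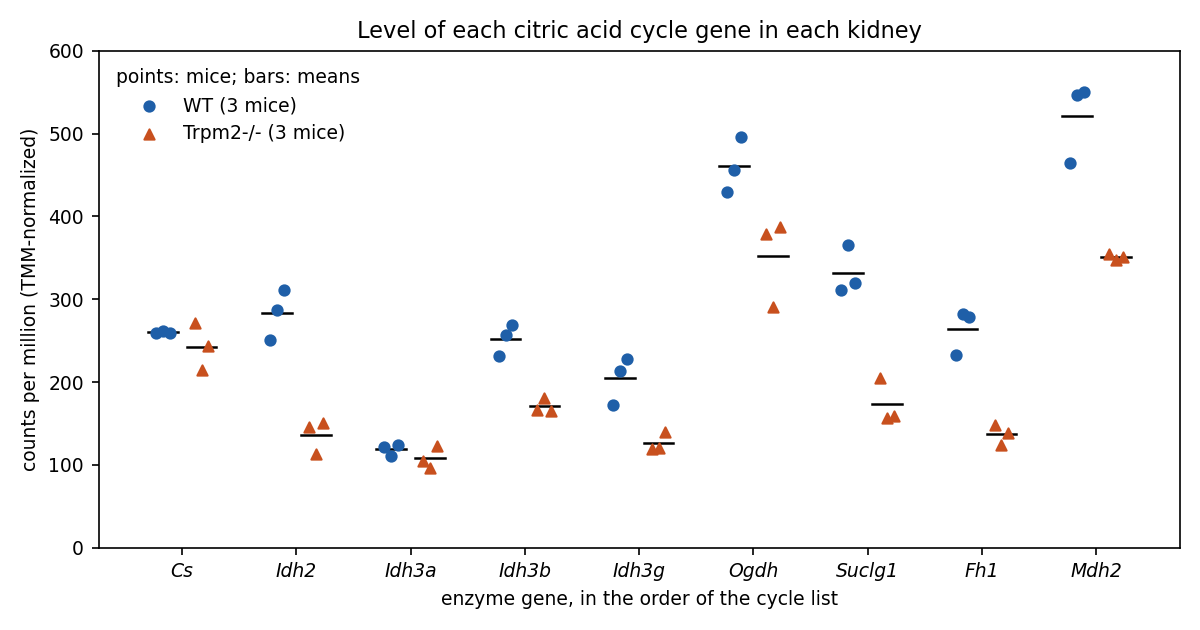
TMM-normalized CPM (vertical axis, linear and from 0) of the 9 citric acid cycle genes (horizontal axis), with 1 point per mouse, circles for WT and triangles for Trpm2-/- kidneys, and bars at the means of 3 mice. The groups overlap for Cs and Idh3a and lie apart for the other 7 genes, as for Idh2 (250 to 311 CPM against 113 to 150.5 CPM).

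Promoters are shown for 4 genes that span these responses, Cs and Ogdh, which did not pass the test, and Idh3g and Fh1, which did. Each sequence holds the 120 bases before the start site in RefSeq (build GRCm38.p6), read 5′ to 3′ on the strand of the gene. A window around the start was given for 8 of the 9 genes, all but Idh3a. In these 4 the printed stretch lies outside the gene as the deposited table bounds it. For the other genes with a window, 42 (Idh2), 96 (Idh3b), 120 (Suclg1) and 120 (Mdh2) of the 120 bases lie inside it. Capitals mark matches to motifs searched on both strands, as spelled out after the sequences.
Cs (chr10:128337607-128337726, plus strand): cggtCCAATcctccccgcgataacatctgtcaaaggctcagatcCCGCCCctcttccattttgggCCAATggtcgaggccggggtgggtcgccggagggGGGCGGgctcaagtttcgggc
Ogdh (chr11:6291477-6291596, plus strand): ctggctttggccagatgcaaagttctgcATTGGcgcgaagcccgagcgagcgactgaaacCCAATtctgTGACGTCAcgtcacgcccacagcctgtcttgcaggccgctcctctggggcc
Idh3g (chrX:73786898-73787017, minus strand): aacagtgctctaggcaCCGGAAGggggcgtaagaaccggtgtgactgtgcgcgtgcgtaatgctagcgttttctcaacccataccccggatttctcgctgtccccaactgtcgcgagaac
Fh1 (chr1:175625636-175625755, minus strand): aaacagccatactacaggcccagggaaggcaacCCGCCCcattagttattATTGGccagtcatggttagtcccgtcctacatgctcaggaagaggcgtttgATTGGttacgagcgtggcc

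Motifs were searched in the window of 300 bases, 250 before and 50 after the start, of the 8 genes and of all 27025 gene symbols with a window (the first window listed for each). No motif searched contains another. The SP motif GGGCGG was found in 5 of the 8 genes (Cs, Idh2, Ogdh, Fh1 and Mdh2), against 35.9% of all windows. The CCAAT box was also found in 5 (Cs, Idh2, Idh3b, Ogdh and Fh1), against 37.9%. Both occur in Cs, whose level hardly differed, and in Fh1, which fell. The ETS motif CCGGAAG was found in Idh3b and Idh3g (9.12% of all windows), the CREB motif TGACGTCA in Ogdh and Mdh2 (1.88%) and the YY1 motif AAGATGG in Idh3g (6.475%). Matches to the NRF1 core GCATGCGC (2.805% of all windows), to AAGGTCA, the core bound by estrogen-related receptors (4.66%), and to the TATA box TATAAA (14.2%) were found in 0 of the 8 windows. A match is a description of the letters and no evidence of binding.

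Cs (chromosome 10, 128337734 to 128362479) encodes citrate synthase, which condenses acetyl-CoA with oxaloacetate and opens the cycle. It had 260, 262 and 259 CPM in the 3 WT libraries and 271, 215 and 243 CPM in the 3 Trpm2-/- libraries. The WT mice were nearly equal, and the Trpm2-/- mice lay on both sides of them. The fitted log2 change was -0.10 ± 0.134 (SE, edgeR, adjusted p = 0.677), so no difference was detected at this number of mice. Of its 75-base transcript windows, 0.403% also occur in Csl, a related gene, whereas none of the other 8 enzymes shared a window with another gene.

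Isocitrate is oxidized in the matrix by a NADP-linked enzyme, encoded by Idh2, and by a NAD-linked enzyme built from the subunits encoded by Idh3a, Idh3b and Idh3g. Idh2 (chromosome 7, 80094846 to 80115392), whose product makes NADPH that serves the reduction of peroxides, had 250, 287 and 311 CPM in WT libraries. In Trpm2-/- libraries it had 145, 113 and 150.5 CPM, each below the lowest WT library. Its log2 fold change was the largest of the 9 in size, -1.05 ± 0.156 (SE, edgeR, adjusted p = 0.00410), a level 0.482 of that in WT kidneys. Among the cycle enzymes it was also the only one past the threshold taken from the study's methods (more than 1 log2 unit in size at an unadjusted p under 0.05), which 4.1% of genes tested passed as lower. This count of 1 became 0 without WT replicate 3 or without Trpm2-/- replicate 2, 2 (with Fh1) without WT replicate 1, and 3 (with Fh1 and Suclg1) without Trpm2-/- replicate 1.

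The subunits of the NAD-linked enzyme did not move alike. Idh3a (chromosome 9, 54586334 to 54604661), which encodes the catalytic alpha subunit, had 122, 111 and 124 CPM in WT libraries and 105, 96.5 and 122 CPM in Trpm2-/- libraries. The groups overlapped, and the fitted log2 change was -0.14 ± 0.133 (SE, edgeR, adjusted p = 0.537). Idh3b (chromosome 2, 130279309 to 130284547), for the beta subunit, had 232, 257 and 269 CPM in WT libraries and 167, 181 and 166 CPM in Trpm2-/- libraries. All Trpm2-/- values were below all WT values, and the log2 change was -0.56 ± 0.127 (SE, edgeR, adjusted p = 0.0216). Idh3g (chromosome X, 73778963 to 73786897), for the gamma subunit, had 172, 213 and 228 CPM in WT libraries against 119, 121 and 140 CPM. Its log2 change was -0.69 ± 0.148 (SE, edgeR, adjusted p = 0.0177), again without overlap between genotypes. Exons of Idh3b overlap those of Nop56 on the opposite strand by 5 bases only.

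Ogdh (chromosome 11, 6291633 to 6356642) encodes the first subunit of the 2-oxoglutarate dehydrogenase complex, a rate-controlling and calcium-sensitive step. It had 430, 456 and 496 CPM in WT libraries and 378, 290 and 387 CPM in Trpm2-/- libraries. The groups did not overlap, but Trpm2-/- replicate 2 was far below the other 2 mice of its genotype. By edgeR, the log2 change of -0.39 ± 0.155 (SE) had an unadjusted p of 0.0322 and an adjusted p of 0.135. Suclg1 (chromosome 6, 73248382 to 73276911) encodes the alpha subunit of succinyl-CoA ligase, the step that forms a nucleoside triphosphate directly, and had 311, 366 and 319.5 CPM in WT libraries. It had 205, 157 and 159 CPM in Trpm2-/- libraries, where replicate 1 was the highest and still well below every WT mouse. The log2 change was -0.93 ± 0.153 (SE, edgeR, adjusted p = 0.00579).

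Fh1 (chromosome 1, 175600374 to 175625635) encodes fumarase, which hydrates fumarate to malate and whose loss is known to cause renal cysts and tumours. It had 233, 282 and 279 CPM in WT libraries and 148, 125 and 139 CPM in Trpm2-/- libraries. The gap between the groups was wide, and the log2 change was -0.94 ± 0.140 (SE, edgeR, adjusted p = 0.00401). Mdh2 (chromosome 5, 135778480 to 135790398) encodes the malate dehydrogenase that regenerates oxaloacetate, and had 465, 546 and 551 CPM in WT libraries. In Trpm2-/- libraries it had 355, 347 and 351 CPM, so the 3 mice were almost equal to each other. The log2 change was -0.57 ± 0.136 (SE, edgeR, adjusted p = 0.0270).

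The calls of Idh2, Suclg1 and Fh1 held with each mouse left out in turn, whereas those of Idh3b, Idh3g and Mdh2 did not. Without WT replicate 2 or without WT replicate 3, only 3 of the 9 genes were called lower (Idh2, Suclg1 and Fh1). Over all genes, 521 and 470 were called lower in these 2 fits, against 1152 with all libraries. Without WT replicate 3 the adjusted p from edgeR was 0.127 for Idh3b, 0.0991 for Idh3g and 0.141 for Mdh2. Their log2 changes there were -0.52, -0.61 and -0.53, close to those with all libraries. Without Trpm2-/- replicate 1, 5 were called and Mdh2 had an adjusted p of 0.0515 in that edgeR fit. All 9 log2 fold changes stayed below 0 in each of these fits. Within the groups, WT replicate 1 had the lowest WT value in 7 of the 9 genes, and Trpm2-/- replicate 2 the lowest Trpm2-/- value in 7.

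Levels of different genes were compared as FPKM, a deposited unit in which counts are taken per length of the gene and per size of the library. In WT kidneys Mdh2 had the highest level, at 128 ± 11.6 FPKM (SD, n = 3), followed by Idh2 at 95.6 ± 10.1 FPKM and Ogdh at 73.8 ± 5.15 FPKM. Ogdh, Fh1, Idh3g, Idh3b and Suclg1 formed a middle group in which neighbours overlapped, down to 62.9 ± 5.58 FPKM for Suclg1. Cs followed at 39.4 ± 0.248 FPKM, and Idh3a was lowest at 20.5 ± 1.14 FPKM. These last steps, and those from Mdh2 to Idh2 to Ogdh, were without overlap between libraries.

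In Trpm2-/- kidneys Mdh2 was again highest, at 86.9 ± 1.23 FPKM, and Idh3a lowest, at 18.8 ± 2.41 FPKM (SD, n = 3). Idh2 had 46.5 ± 7.14 FPKM and overlapped with Ogdh above it (56.9 ± 8.92 FPKM) and with Idh3b below it (44.1 ± 2.01 FPKM). Cs, at 37.1 ± 4.34 FPKM, now stood among Idh3g (41.4 ± 4.11 FPKM), Fh1 (35.7 ± 3.22 FPKM) and Suclg1 (33.2 ± 5.15 FPKM). Between Ogdh and Suclg1 every pair of neighbours overlapped, so the order there is not resolved. As a share of the summed FPKM of the 9 genes, Idh2 took 15.4% ± 0.544 in WT and 11.6% ± 1.01 in Trpm2-/- kidneys. Cs took 6.39% ± 0.532 and 9.24% ± 0.564, and Ogdh 11.9% ± 0.449 and 14.1% ± 1.27 (SD, n = 3).

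**Figure D2:**
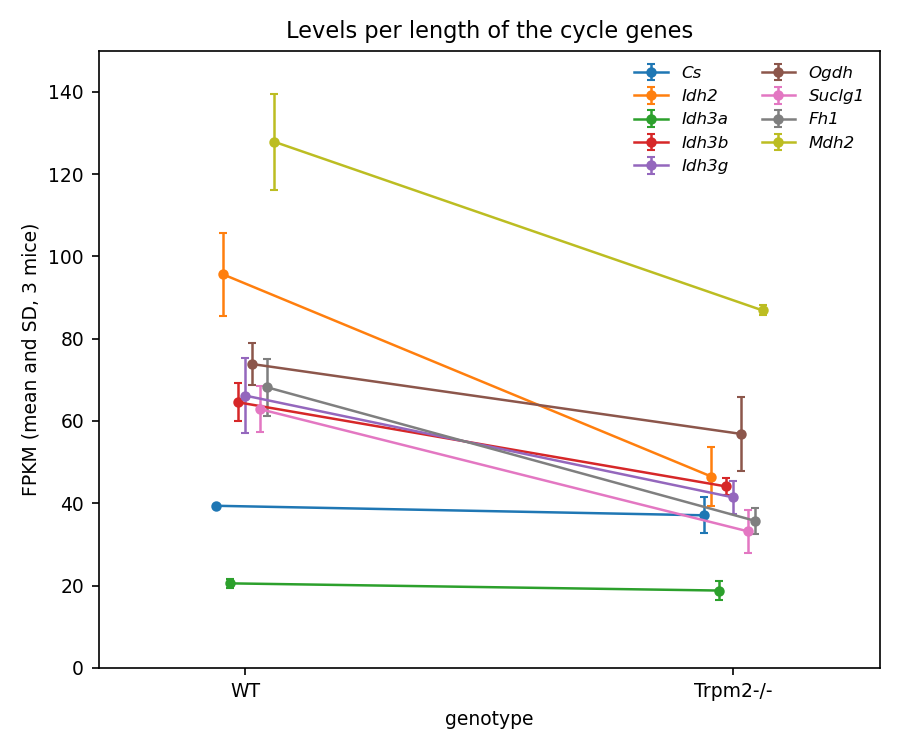
Mean FPKM of each gene (vertical axis, linear and from 0) in WT and Trpm2-/- kidneys (horizontal axis), with bars for the SD of 3 mice and a line joining the means of one gene. The line of Idh2 drops from 95.6 to 46.5 FPKM and crosses that of Ogdh, while the lines of Cs (39.4 to 37.1 FPKM) and Idh3a (20.5 to 18.8 FPKM) are almost level.

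The balance between pairs of genes was examined as the log2 ratio of their CPM within each library, which no scaling of the library can change. Of 8 pairs, 7 had no overlap between genotypes, each with p = 0.1 in a two-sided exact permutation test, the smallest p that 3 mice against 3 allow, and 0.114 after Benjamini-Hochberg adjustment over the 8 pairs. The share of other gene pairs without overlap was not computed, so the count has no background. Pairs that set a called gene against one not called, such as Idh2 to Idh3a and Cs to Mdh2, in part repeat the results of the single genes. Relative to Idh3a, Idh3b had a log2 ratio of 0.93, 1.21 and 1.12 in WT libraries and of 0.67, 0.91 and 0.44 in Trpm2-/- libraries, so Trpm2-/- replicate 2 came close to the lowest WT mouse. Idh3g relative to Idh3a went from 0.50, 0.93 and 0.88 to 0.18, 0.32 and 0.20. Idh2 relative to Idh3a, the NAD-linked subunit that changed least, went from 1.25 ± 0.180 to 0.33 ± 0.123 (SD, n = 3), a difference of -0.91. This pair does not stand for the whole NAD-linked enzyme, since Idh3b and Idh3g had log2 fold changes of -0.56 and -0.69.

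Cs relative to Mdh2, the enzymes that use and supply oxaloacetate, was 0.46 higher on the same scale, at -0.996 ± 0.136 against -0.54 ± 0.152 (SD, n = 3). Ogdh relative to Suclg1, which act in succession, was at 0.47 ± 0.158 in WT and 1.02 ± 0.230 in Trpm2-/- kidneys (SD, n = 3). Between compartments, the log2 ratio of cytosolic Idh1 to mitochondrial Idh2 differed by 1.12 and that of cytosolic Mdh1 to Mdh2 by -0.82, so the 2 pairs shifted in opposite directions. The aspartate aminotransferases differed little, with Got1 to Got2 at -0.96 ± 0.103 in WT and -0.88 ± 0.160 in Trpm2-/- kidneys (SD, n = 3, p = 0.6 in the exact permutation test). In that pair the groups overlapped.

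**Figure D3:**
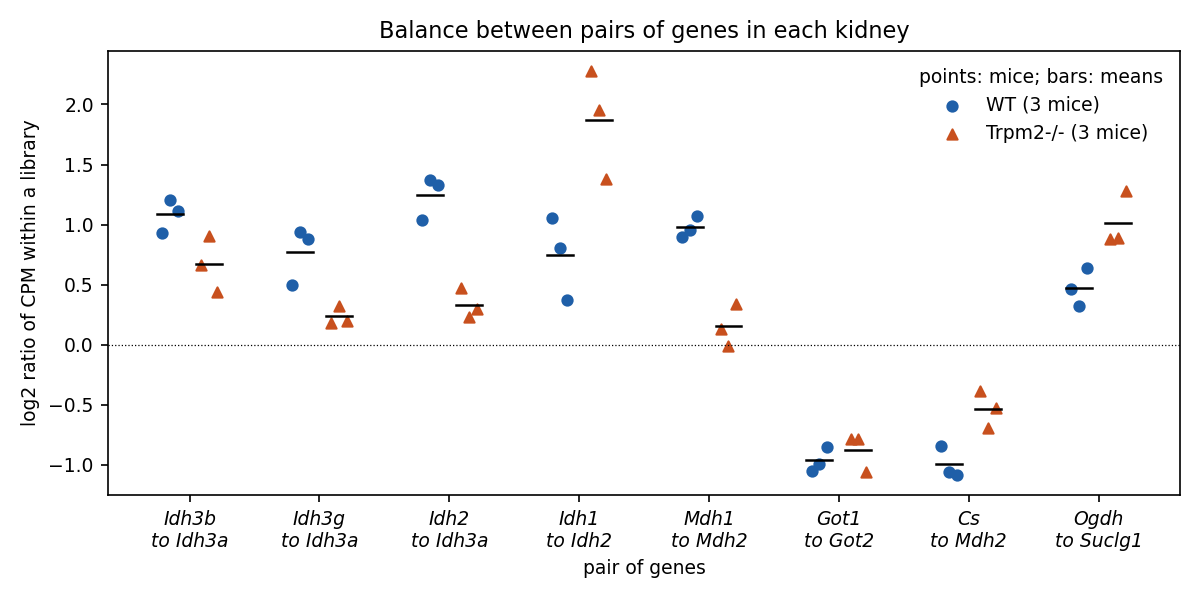
Log2 ratio of CPM within each library (vertical axis) for 8 pairs of genes (horizontal axis), with 1 point per mouse, circles for WT and triangles for Trpm2-/- kidneys, and bars at the means of 3 mice. Idh1 to Idh2 lies higher in Trpm2-/- kidneys and Mdh1 to Mdh2 lower, and the points of the genotypes overlap only for Got1 to Got2.

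Among 9 other subunits of the cycle and of succinate dehydrogenase, 7 were lower and 0 higher by the edgeR test. With the replicate number as a block, 2 were lower. Over all genes tested, the edgeR test called 7.28% lower and 4.74% higher. The median log2 fold change of the 9 subunits was -0.66. All 9 had every Trpm2-/- library below every WT library, as did 16.8% of genes tested. Sdhb, the iron-sulfur subunit of succinate dehydrogenase, went from 319, 376 and 394 CPM to 163, 197 and 199 CPM (log2 fold change -0.96, adjusted p = 0.00470 from edgeR). Sdhc, a membrane anchor of the same dehydrogenase, fell by 0.66 on the log2 scale.

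At the entry of pyruvate, 1 of 6 genes was lower, Mpc2 of the mitochondrial pyruvate carrier, with 261 to 341 CPM in WT and 150 to 169 CPM in Trpm2-/- kidneys. Its partner Mpc1 (-0.51, adjusted p = 0.0513 from edgeR) and Pdhb of pyruvate dehydrogenase (-0.49, adjusted p = 0.0561) did not pass the test. Among 6 kinases and phosphatases that switch pyruvate dehydrogenase off or on, 3 kinases were lower. Pdk2 fell from 213, 280 and 245 CPM to 103, 74.7 and 97.1 CPM, a log2 change of -1.42 ± 0.167 (SE, edgeR, adjusted p = 0.00182), and Pdk3 and Pdk1 fell by 0.71 and 0.76. Pdk4, named after its values were seen, was the only one of the 6 with a higher mean, at 175, 160 and 218 CPM in WT and 359, 264 and 235 CPM in Trpm2-/- kidneys (0.63, adjusted p = 0.0576 from edgeR).

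Of 13 enzymes that feed or drain the cycle, 7 were lower and 0 higher, with a median log2 fold change of -0.70. Pck1, which withdraws oxaloacetate for gluconeogenesis, went from 5757, 6282 and 5659 CPM to 2172, 1322 and 1839 CPM (-1.73, adjusted p = 0.00221 from edgeR). Pcca and Pccb, the subunits of propionyl-CoA carboxylase at the start of the route to succinyl-CoA, fell by 1.42 and 1.04 on the log2 scale. Among 9 citrate and dicarboxylate carriers, 4 were lower, led by the mitochondrial dicarboxylate carrier Slc25a10 (-0.99) and by Slc13a2 (-2.26) and Slc13a3 (-1.75), which carry citrate and dicarboxylates across the plasma membrane of proximal tubule cells. Of 6 cytosolic counterparts, 2 were lower, Mdh1 from 867, 1061 and 1160 CPM to 388, 345 and 445 CPM (-1.39, adjusted p = 0.00217 from edgeR) and Aco1 (-0.64). By edgeR, Me1 had -0.38 (adjusted p = 0.149) and Idh1 0.11 (adjusted p = 0.806).

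Of 9 matrix proteins outside the cycle, 5 were lower, among them the chaperones Trap1 (-0.83) and Hspd1 (-0.72) and the elongation factor Gfm1 (-0.55), and their median of -0.55 was close to that of the 9 enzymes. None of the 3 genes for attaching lipoate, a cofactor of 2-oxoglutarate dehydrogenase, passed the edgeR test, with 1 at an unadjusted p under 0.05 and 0 by DESeq2 and by limma-voom. Their log2 fold changes were -0.65 for Lipt1, -0.28 for Lias and 0.11 for Lipt2. Among 10 regulators of mitochondrial genes, 1 was lower and the median was 0.11. It was Esrrb, an estrogen-related receptor, at 19.7, 12.7 and 26.1 CPM in WT and 8.14, 10.4 and 10.8 CPM in Trpm2-/- kidneys (-0.99, adjusted p = 0.0397 from edgeR). Its call was lost without any 1 library but WT replicate 2, and limma-voom and the fit with the replicate number as a block called 0 of the 10 lower. That block fit called 1 of the 10 higher, as did the fit without Trpm2-/- replicate 4. By edgeR, Esrra had -0.43 (adjusted p = 0.112) and Gabpb1 0.35 (adjusted p = 0.104).

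Over these 9 lists of related genes, 30 of 71 were lower and 0 higher by the edgeR test, against 7.28% and 4.74% of genes tested. At an unadjusted p under 0.05, 3 of the 71 were higher, with 1 called higher by DESeq2 (Pdk4) and 0 by limma-voom. The fit with the replicate number as a block called 2 higher, and so did the fit without Trpm2-/- replicate 4. The count of lower genes was 14 without WT replicate 2 and also 14 without WT replicate 3. Over all genes, 521 and 470 were lower in these fits, against 1152 with all libraries. Without either of these libraries, 2 of the 9 other cycle subunits, 1 of the 6 pyruvate dehydrogenase switches and 1 of the 9 other matrix proteins were called lower. Enzymes that feed or drain the cycle had 4 of 13 without WT replicate 2, the cytosolic counterparts 1 of 6 without any library but Trpm2-/- replicate 1, the matrix proteins 2 of 9 without Trpm2-/- replicate 4, and the pyruvate entry genes 3 of 6 without Trpm2-/- replicate 1 or 4. Of the 19 genes that passed the test among the 3 with the smallest p of each list, 12 did so with every mouse left out in turn. The others (Sdhc, Pdk1, Pdk3, Aco1, Hspd1, Gfm1 and Esrrb) lost the call without at least WT replicate 3.

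**Figure D4:**
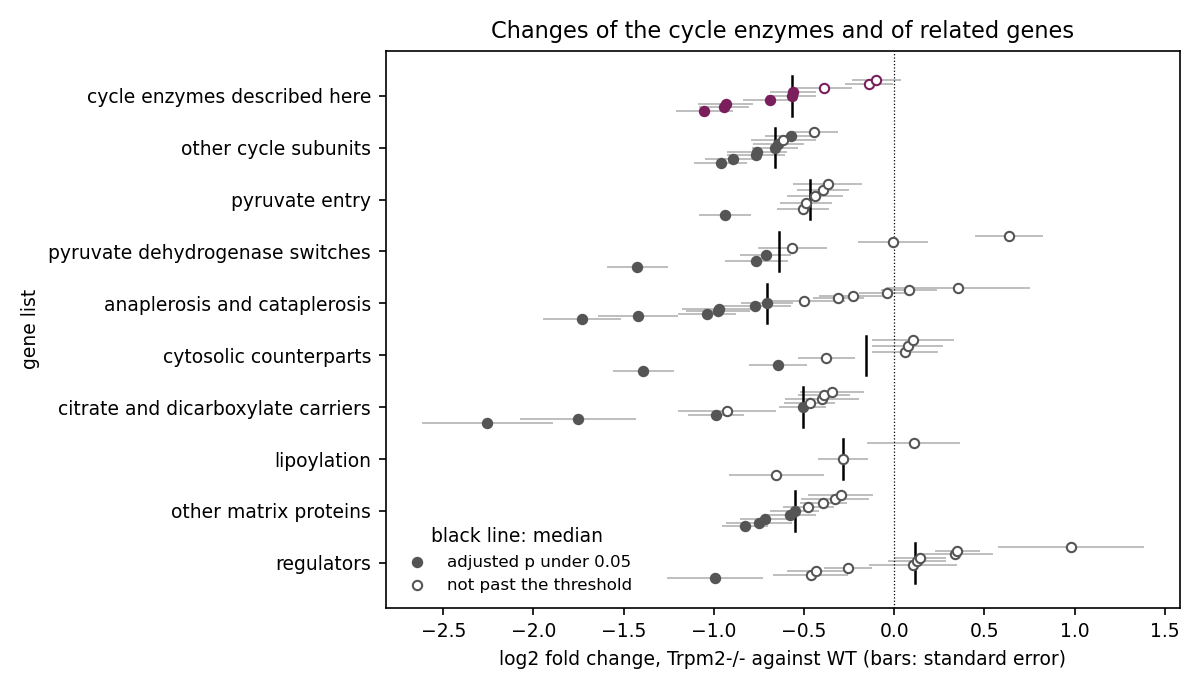
Log2 fold change of each gene, Trpm2-/- against WT (horizontal axis), by gene list (vertical axis), with bars for the standard error, filled points for an adjusted p under 0.05 and a black line at the median of each list. The medians lie between -0.70 and -0.16 in all lists but the regulators (0.11), and the 9 cycle enzymes (top) range from -1.05 to -0.10.

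The genes whose profile over the 6 libraries lay nearest to the mean profile of the 9 enzymes were found by the root mean square difference of centred log2 CPM. They were 4933431E20Rik (0.0232), Oat (0.0317), Rwdd2b (0.0393), Atp6v1e1 (0.0414) and Nfs1 (0.0437). Oat, the ornithine aminotransferase of the matrix, had 180, 192 and 211 CPM in WT and 133, 120 and 132.5 CPM in Trpm2-/- kidneys. Nfs1, the cysteine desulfurase that starts iron-sulfur cluster assembly, had 71.5, 82.6 and 84.9 CPM and then 54.2, 48.1 and 50.4 CPM. Of the enzymes themselves, Mdh2 lay nearest to the mean profile (0.0620) and Cs farthest from it (0.258).

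Markers of proximal tubule cells were lower in the same kidneys as the cycle enzymes. Of 10 proximal tubule markers, 9 were lower, and 6 to 8 with a mouse left out. None of the 10 was at 0 in all libraries, and their median log2 fold change was -1.32. Their summed level in Trpm2-/- kidneys was 0.418 of that in WT kidneys, against 0.667 for the 9 enzymes. Markers of the thick ascending limb, another segment rich in mitochondria, summed to 745 to 2265 CPM in WT and 209 to 888 CPM in Trpm2-/- kidneys, which overlapped, and 1 of 5 was lower (Umod). The number lower there was 1 without WT replicate 2, 2 without Trpm2-/- replicate 4 and 0 without any other library. Distal convoluted tubule markers overlapped too, at 237 to 394 CPM and 72.4 to 371 CPM. Of 3 tested, 0 were lower by edgeR, 0 lower at an unadjusted p under 0.05 and 0 lower by DESeq2 and limma-voom. In the other direction, 0 were called higher by edgeR, 1 was higher at an unadjusted p under 0.05, and 1 was called higher without Trpm2-/- replicate 2. Collecting duct markers were at 1354 to 1669 CPM and 857 to 1024 CPM, with 2 of 8 lower (Aqp2 and Aqp3), and 1 of 8 without any library but Trpm2-/- replicate 4. Aqp2 made up most of these sums, with means of 1124 CPM in WT and 555 CPM in Trpm2-/- kidneys. Of the 8 log2 fold changes, only 5 were below 0, so the sum does not stand for every marker of this segment. Of 6 markers of injured tubule, 2 were higher (Sox9 and Krt20). The number called higher was 0 without WT replicate 3 and 1 without WT replicate 2 or Trpm2-/- replicate 1. The sums of the 6 overlapped, at 14688 to 16314 CPM in WT and 16277 to 23234 CPM in Trpm2-/- kidneys. Spp1 made up most of them, with means of 12595 and 14729 CPM. It was not called (log2 fold change 0.23, adjusted p = 0.561 from edgeR).

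Podocyte, endothelial, fibroblast and leukocyte markers had 0 genes past the edgeR test in either direction. At an unadjusted p under 0.05, 3 podocyte markers and 1 leukocyte marker were higher, and DESeq2 called 1 podocyte marker and limma-voom 0. Without Trpm2-/- replicate 4, 2 endothelial markers and 1 fibroblast marker were lower, and without Trpm2-/- replicate 2, 2 podocyte markers were higher. The fit with the replicate number as a block called 1 endothelial marker lower. Their sums overlapped between genotypes, with 91.8 to 95.4 CPM of leukocyte markers in WT and 76.4 to 99.2 CPM in Trpm2-/- kidneys. The part of these shifts in cell markers in the levels of the cycle enzymes was not tested. Without Trpm2-/- replicate 4, which stood apart in podocyte, endothelial and fibroblast markers, the count of cycle enzymes called lower was again 6. The median log2 fold change of the 9 enzymes was then -0.56. Summed proximal tubule markers were lower in all 3 Trpm2-/- libraries (2278 to 2845 CPM, WT 5242 to 6911 CPM), so this fit does not bear on that shift.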

How the data were processed

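Kidney RNA of 6 mice was sequenced. The submitters' processing notes name HISAT2, StringTie and the build mm9, with no versions, but 53499 of 54409 gene positions in the table equal those of GENCODE M21 (GRCm38), which was used for positions. Strandedness and the counting tool are not given in the sources used here. The authors deposited whole-number counts per gene without normalization, and FPKM values made from them. The table's gene lengths equal the union of exons for the 9 enzymes.

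Counts were filtered with filterByExpr (15816 genes kept), normalized by TMM and tested in R 4.3.3 with edgeR 4.0.16 (two-sided quasi-likelihood test, genotype only, Benjamini-Hochberg adjustment over all genes tested). The SE of a log2 change is its size divided by the square root of the F statistic. CPM values use TMM library sizes. The alternatives were DESeq2 1.42.0, limma 3.58.1 (voom, and log2 of FPKM plus 1 or 0.1), other scalings and filters, the mitochondrial genome left out, the replicate number as a block, and each mouse left out. Tests were checked on simulated data.

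The enzymes, gene lists and pairs were chosen with earlier results of these data known. Named genes are the 9 enzymes, the 3 of each related list with the smallest p, the pairs compared and the 5 nearest profiles. A gene that this rule chose is not reported here. Pdk4, Umod, Aqp2, Aqp3, Sox9, Krt20 and Spp1 were named outside this rule, after their values were seen, since a small count or a sum rests on them. Counts of any 2 libraries of a genotype differed by more than sampling noise (chi-square over its degrees of freedom 13.5 to 36.7). The labels name no separate animals beyond the library numbers, so p-values measure the spread between these libraries.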

Additional observations from a re-analysis of the deposited data

How the results depend on the processing

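Over 16 alternatives, the log2 fold changes of the 9 enzymes were all below 0. Idh2, Fh1 and Suclg1 passed the threshold in 16 of 16, Idh3b in 13, Idh3g in 12 and Mdh2 in 11, and Cs, Idh3a and Ogdh in 0. The number called lower was 3 with the replicate block (Idh2, Suclg1 and Fh1), 3 to 6 with a mouse left out, and 4 with limma on log2(FPKM + 1). Counts with the replicate block rest on fewer libraries, since WT replicate 3 and Trpm2-/- replicate 4 have no same-numbered partner and add nothing to the genotype difference. The number past the study's threshold was 0 to 3 with a mouse left out. Related genes called lower were 15 with the replicate block, 12 with limma on log2(FPKM + 1) and 14 to 32 with a mouse left out.

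Over all genes, 1152 were lower and 750 higher. With the replicate block these were 661 and 341, and with limma on log2(FPKM + 1) 405 and 105. With a mouse left out they were 470 to 1240 and 160 to 819. With no filter on low counts 1262 were higher, and with limma on log2(FPKM + 0.1) 482. Deviations of same-numbered mice correlated at 0.0641 and -0.0120, so the numbers were not taken as pairs. The causes of these shifts were not tested. The summed level kept its direction under each alternative run. Scalings cannot change the difference in a ratio, so only leaving out a mouse could do so, and the 8 ratios kept their direction there. For Got1 to Got2 that direction means little, since the genotypes overlapped. With 3 mice a genotype, no exact test on single values can pass 0.05.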
